A study of Mus musculus with 18 samples.

Results

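The interferon-induced transmembrane (IFITM) genes are described here in purified mouse brain microglia, the resident macrophages of the brain. The 4 genes, Ifitm1, Ifitm2, Ifitm3 and Ifitm6, are 4 of the 55414 gene identifiers in the deposited tables. They were chosen by family name and by their measured levels in the 4 groups, which earlier results had shown to differ, so group levels and group differences are given as a description, without p-values, and calls made over all genes are only counted. IFITM proteins are small membrane proteins, many of them induced by interferons, that block enveloped viruses at the step where the viral and endosomal or plasma membranes fuse. Ifitm3 is the best studied antiviral member, it acts mainly on endosomes and lysosomes, and Ifitm1 is found more at the cell surface. In blood, IFITM transcripts are abundant in monocytes and neutrophils, so the 4 genes are set here beside the monocyte and neutrophil markers of each library.

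The study compared Chd8 knockout (KO) with wild-type (WT) microglia in both sexes. Every library title also carries the tag HX, which the titles do not explain. Beyond this tag, the labels name no other allele or agent. Chd8 encodes a chromatin remodeler. There were 4 female KO, 4 female WT, 5 male KO and 5 male WT libraries, each made from 30 ng of RNA by MARS-seq adapted to bulk samples, in which reads come from the 3' ends of polyadenylated transcripts and a unique molecular identifier (UMI) marks every molecule caught. The labels do not give the mice's age or strain, the type of Chd8 allele, any Cre driver, the purification, or whether each library is a separate animal, so every p-value below measures only the spread between these libraries.

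Libraries held 435838 to 9149144 UMIs, and the lowest of the female KO and of the female WT group, 435838 and 458075, were the shallowest. Reads per UMI fell into 3 ranges, and the highest, 5.52 to 7.26, held 1 female KO library, 3 female WT libraries and no male library. Chd8 was lower in both KO groups, with means of 123 ± 10.8 (SD, n = 4) in female KO, 166 ± 24.3 in female WT, 104 ± 8.52 in male KO and 152 ± 12.7 in male WT, in UMIs scaled to a common library total (CPM). The microglial label matched its markers, since all 14 of 14 microglial markers averaged over 10 CPM in every group. Their summed level, scaled by the library total, was 48870 to 62040 CPM. Markers of other myeloid cells were also present and differed between the groups, as given below.

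The 4 genes lie in 1 cluster on mouse chromosome 7 of GRCm38, in which Ifitm2 (ENSMUSG00000060591) spans positions 140954837 to 140955987 on the minus strand. Ifitm1 (ENSMUSG00000025491) follows at 140967221 to 140969825 on the plus strand. Ifitm3 (ENSMUSG00000025492) is at 141009586 to 141010770 and Ifitm6 (ENSMUSG00000059108) at 141015699 to 141017924, both on the minus strand. Their coding sequences are alike to different degrees: Ifitm2 and Ifitm3 share 74.4% of aligned bases, and the other pairs share 53.9% to 62.1%. Because libraries read 3' ends, the last 300 bases of each transcript were searched for 30-base words also found in other genes. No word was shared between the 4 genes. All words of Ifitm6 were its own, as were 95.6% for Ifitm1, 89.7% for Ifitm3 and 67.2% for Ifitm2, whose remaining words occur in predicted genes with at most 16 UMIs in all libraries together. Counts of Ifitm2 are therefore the least certain of the 4 in this respect.

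Interferons act through a pair of promoter elements, the interferon-stimulated response element (ISRE), used after type I interferon, and the gamma-activated site (GAS), used after interferon gamma. RefSeq promoters of GRCm38.p6, from 250 bases before to 50 after each gene's start, were searched on both strands for the ISRE core GAAANNGAAA and the GAS TTCNNNGAA. The ISRE core was present in 3.44% of 32851 promoters and the GAS in 8.30%. The matches in the 4 genes are shown because the members differ in which of these motifs they hold. Capitals mark the motif, positions count its first base from the start as +1, and all sites are on the minus strand of chromosome 7. The Ifitm2 match begins at -46 (chr7:140955990-140956015). The Ifitm3 ISRE matches begin at 3 (chr7:141010725-141010750) and at 20 (chr7:141010708-141010733), in the transcribed stretch just after the start, and its GAS match begins at 14 (chr7:141010715-141010739) and overlaps the second of these. The Ifitm6 match begins at -10 (chr7:141016886-141016910) from its RefSeq start. This site lies inside the Ifitm6 span given above, 141015699 to 141017924, so its position depends on which start is taken.
Ifitm2 ISRE core: accaacagGAAAAGGAAAttgctaga
Ifitm3 first ISRE core: aaattcagGAAAAGGAAActtctgag
Ifitm3 second ISRE core: acttctgaGAAACCGAAActgccgca
Ifitm3 GAS: aaggaaacTTCTGAGAAaccgaaac
Ifitm6 GAS: atatgaacTTCCTTGAAacaagagc

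Ifitm2 and Ifitm3 thus held the same 10 letters, GAAAAGGAAA, in their ISRE match, Ifitm6 held a GAS match only, and Ifitm1 held neither motif in this window. These matches are descriptions of letters and were not tested for binding.

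All 4 genes had their highest mean in female WT microglia, followed in order by female KO, male KO and male WT. Levels are in CPM scaled by the trimmed mean of M-values (TMM), and were compared within a gene only, since libraries read 3' ends. Fewer cells of a type and less RNA per cell cannot be told apart in such bulk libraries. In this order, neighbouring groups overlapped in every case except Ifitm2 between female WT and female KO.

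Ifitm3, the broadly acting antiviral member, was the most deeply counted, with 2917 UMIs in all. Female WT libraries gave 300, 243, 131 and 232 CPM, and female KO libraries gave 203, 52.4, 111 and 89.4 CPM. Male KO libraries gave 31.2, 33.5, 58.8, 45.1 and 21.7 CPM, and male WT libraries gave 24.9, 25.9, 35.5, 35.3 and 37.0 CPM. Every female WT library was above every male WT library, whereas the female KO and female WT values overlapped through the female KO library of 203 CPM, which is replicate 33. The log2 fold change (± SE) of KO against WT was -1.12 ± 0.32 in females, a 2.17-fold lower level, and 0.21 ± 0.30 in males. Males were 6.99-fold lower than females in WT (log2 -2.81 ± 0.31) and 2.78-fold lower in KO (-1.47 ± 0.31).

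Ifitm2, the close relative of Ifitm3, showed the clearest separation of the female groups. Female WT libraries gave 150, 99.2, 37.1 and 107 CPM (67, 124, 66 and 138 UMIs), and female KO libraries gave 10.3, 18.2, 26.8 and 27.9 CPM (4, 65, 52 and 91 UMIs). All female KO values were below all female WT values. Male KO libraries gave 10.8, 17.9, 7.97, 15.7 and 7.52 CPM, and male WT libraries gave 7.06, 12.04, 11.5, 6.66 and 9.88 CPM. The log2 fold change of KO against WT was -2.04 ± 0.34 in females, a 4.10-fold lower level, and 0.32 ± 0.34 in males. Males were 10.0-fold lower than females in WT (-3.33 ± 0.33), with no overlap, and 1.95-fold lower in KO (-0.97 ± 0.34), where the groups overlapped.

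Ifitm6, a member whose transcript is found mainly in myeloid cells, followed the same order with a wider spread. Female WT libraries gave 98.5, 65.6, 13.5 and 82.1 CPM, and female KO libraries gave 20.6, 8.13, 20.6 and 16.3 CPM. The female WT library of 13.5 CPM, replicate 31, fell within the female KO range. Male KO libraries gave 2.74, 10.9, 4.98, 12.6 and 2.13 CPM, and male WT libraries gave 8.41, 8.86, 2.002, 2.896 and 3.83 CPM. The log2 fold change of KO against WT was -2.01 ± 0.55 in females, a 4.04-fold lower level, and 0.20 ± 0.58 in males. Males were 11.5-fold lower than females in WT (-3.53 ± 0.54), with no overlap, and 2.49-fold lower in KO (-1.32 ± 0.57).

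Ifitm1, the cell-surface member, rested on 229 UMIs in all 18 libraries and on as few as 1 UMI in a male WT library. Female WT libraries gave 47.0, 10.4, 2.25 and 22.5 CPM (21, 13, 4 and 29 UMIs), and female KO libraries gave 12.9, 6.73, 3.61 and 7.68 CPM (5, 24, 7 and 25 UMIs). Male KO libraries gave 3.16, 5.47, 1.00, 6.75 and 1.93 CPM, and male WT libraries gave 3.36, 2.13, 2.002, 0.29 and 2.23 CPM. The groups overlapped in all comparisons, and replicate 31 was again the lowest female WT library. The log2 fold change of KO against WT was -1.34 ± 0.65 in females and 0.85 ± 0.65 in males, and males were 8.57-fold lower in WT (-3.10 ± 0.66) and 1.89-fold lower in KO (-0.92 ± 0.62). Without female WT replicate 34, the library of 47.0 CPM, the female log2 fold change was -0.73.

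**Figure D1:**
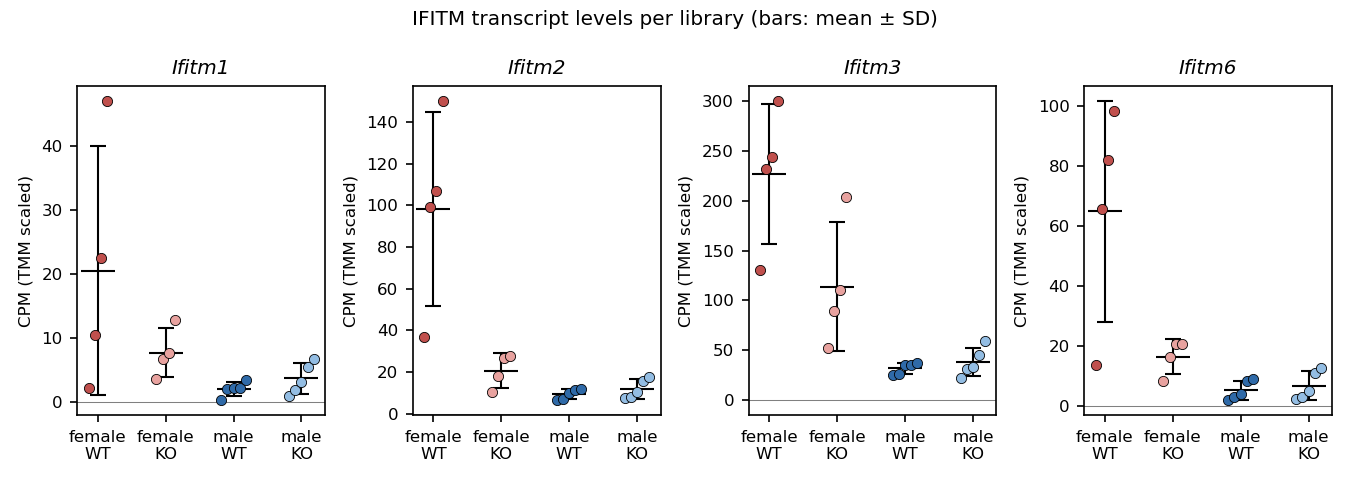
TMM-scaled CPM (vertical axes, linear) of Ifitm1, Ifitm2, Ifitm3 and Ifitm6 in the 4 groups (horizontal axes); each point is 1 library, and bars are the mean ± SD of 4 or 5 libraries. Female WT libraries reach the highest level of each gene, 47.0, 150, 300 and 98.5 CPM, and 1 of them lies low in each panel.

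By the rule used across all genes, an edgeR quasi-likelihood test with a Benjamini-Hochberg adjusted p under 0.05, 1 of the 4 genes (Ifitm2) was called between female KO and WT, where 2.68% of all 10948 tested genes were called and groups did not overlap with KO below WT in 2.84%. None of the 4 was called between male KO and WT, where 6.24% of all genes were called. All 4 were called between the sexes in WT (background 17.3%), where male values lay below female values without overlap for 3 (background 9.41%), and 1 (Ifitm3) in KO (background 7.10%). The difference of the KO effect, female minus male, was called for Ifitm2 alone (background 0.237%), with log2 values of -2.18 ± 0.91 for Ifitm1, -2.36 ± 0.48 for Ifitm2, -1.33 ± 0.43 for Ifitm3 and -2.21 ± 0.79 for Ifitm6. No IFITM gene was called for this difference in 13 of 18 fits that left out a library. Since these contrasts were used to choose the genes, nothing is read from the counts. The female KO and WT values enter several of these comparisons, which therefore share libraries.

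The female WT group holds most libraries of the highest reads-per-UMI range, so the differences were also computed with that range in the model. The sex difference in WT was then -2.76 for Ifitm1, -3.60 for Ifitm2, -2.15 for Ifitm3 and -3.53 for Ifitm6 on the log2 scale, and the female KO difference was -0.88, -2.25, -0.81 and -2.01 in the same order. Leaving out the 4 libraries of that range, which keeps a single female WT library assumed to vary like the other groups, gave female KO differences of -0.74, -2.04, -1.55 and -2.17. The sign was the same in each of these fits for all 4 genes.

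Monocyte markers followed the order of the female groups and the sexes. The list held 13 markers, among them Ly6c2 and Ccr2 of classical monocytes and Treml4 and Ace of the non-classical kind. Its summed level, scaled by the library total, was 963, 744, 295 and 827 CPM in female WT and 328, 164, 237 and 228 CPM in female KO. It was 98.0, 151, 74.2, 109 and 71.0 CPM in male KO and 108, 114, 78.0, 84.9 and 90.5 CPM in male WT. Every male library was below every female library. The female KO mean was 2.96-fold below the female WT mean, which did not pass an exact two-sided permutation test (p = 0.0571, adjusted p = 0.0914 over 8 tests, smallest possible p = 0.0286). Males were 7.44-fold lower in WT and 2.38-fold lower in KO, each at the smallest p the exact test can give (p = 0.00794, adjusted p = 0.0159), and the male KO and WT sums differed by 1.06-fold (exact p = 0.762). Of the 13 markers, 10 averaged over 10 CPM in female WT, 7 in female KO and 3 in each male group, and Vcan was at 0 in all female WT libraries.

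Of the 11 monocyte markers tested, 5 fell and none rose in female KO against WT (median log2 fold change -1.62, against 0.01 over all genes). Ly6c2, a surface antigen of classical monocytes, fell by 2.37 ± 0.40 on the log2 scale (edgeR adjusted p = 0.00497), and Napsa, S100a6, Fn1 and Chil3 fell by 1.61, 1.72, 2.60 and 1.86 on the same scale. None of the 11 passed in males, 10 were lower in male than female WT, and 5 were lower in male than female KO. Without single libraries, adjusted p-values reached 0.0941 for Fn1 and 0.06 for S100a6.

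Neutrophil markers were more abundant and more variable. The sum over 15 markers was 8160, 3195, 2242 and 16460 CPM in female WT, 5417, 1039, 1043 and 2450 CPM in female KO, 340 to 666 CPM in male KO and 333 to 1189 CPM in male WT. Male WT replicate 37, at 1189 CPM, was the only male library above any female library, and it exceeded the 2 lowest female KO libraries. The female KO mean was 3.02-fold below the female WT mean (exact permutation p = 0.2, adjusted p = 0.229), and males were 10.1-fold lower in WT and 5.28-fold lower in KO (both exact p = 0.00794, adjusted p = 0.0159). Of 14 neutrophil markers tested, 10 fell in female KO against WT and none rose (median -2.26), with the lowest p-values for Wfdc21 (-2.35 ± 0.50, edgeR adjusted p = 0.0158), Cd177 (-2.42), the granule protein gene Ltf (-2.55) and Lcn2 (-2.31). None of them passed in males. Without single female libraries, adjusted p-values of these 4 markers reached 0.127 to 0.189.

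Border-associated macrophage markers had group means in the same order as the IFITM genes, with a different spacing. They summed to 252 ± 63.1 CPM in female KO, 290.0 ± 83.0 in female WT and 217 ± 43.8 in male KO, against 57.3 ± 12.6 in male WT, and their part in the IFITM differences was not tested. Of 10 tested markers, 9 were lower in male than female WT (median log2 fold change -2.23), and 7 rose in male KO against WT (median 1.82). In that male KO comparison Ifitm1, Ifitm2, Ifitm3 and Ifitm6 were at 0.85 ± 0.65, 0.32 ± 0.34, 0.21 ± 0.30 and 0.20 ± 0.58. None of the 10 markers passed between female KO and WT (median -0.06) or between the sexes in KO (median -0.36). Neuronal (4 of 4 tested), astrocyte (4 of 5) and oligodendrocyte lineage markers (3 of 5) also rose in male KO against WT and none of them passed in females. Endothelial and mural cell markers, of cells in which IFITM genes are also known to be expressed, summed to 39.0 to 65.5 CPM over all libraries, with 4 to 8 of 18 markers at 0 in a group. Meningeal fibroblast markers were at or near 0, with sums of at most 1.98 CPM.

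Within groups, libraries with more monocyte marker RNA had more Ifitm6, Ifitm1 and Ifitm2. The model kept 1 mean per group and added the log2 monocyte marker sum, so the slope uses only differences between libraries of the same group. The genes were chosen by their group levels. The marker lists and this test were chosen with earlier results of these data known, so the slopes are not shown to be independent of that choice. A 2-fold higher sum went with a log2 level higher by 1.88 ± 0.26 for Ifitm6 (edgeR adjusted p = 0.000594), by 1.90 ± 0.40 for Ifitm1 (adjusted p = 0.0275) and by 0.99 ± 0.19 for Ifitm2 (adjusted p = 0.0113). The slope of Ifitm3 was 0.61 ± 0.23 and did not pass (adjusted p = 0.316). Over the 10937 genes tested outside the marker list, 0.457% had a slope that passed, 0.430% upward, so 3 of the 4 IFITM genes were among 47 genes with a positive slope that passed.

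**Figure D2:**
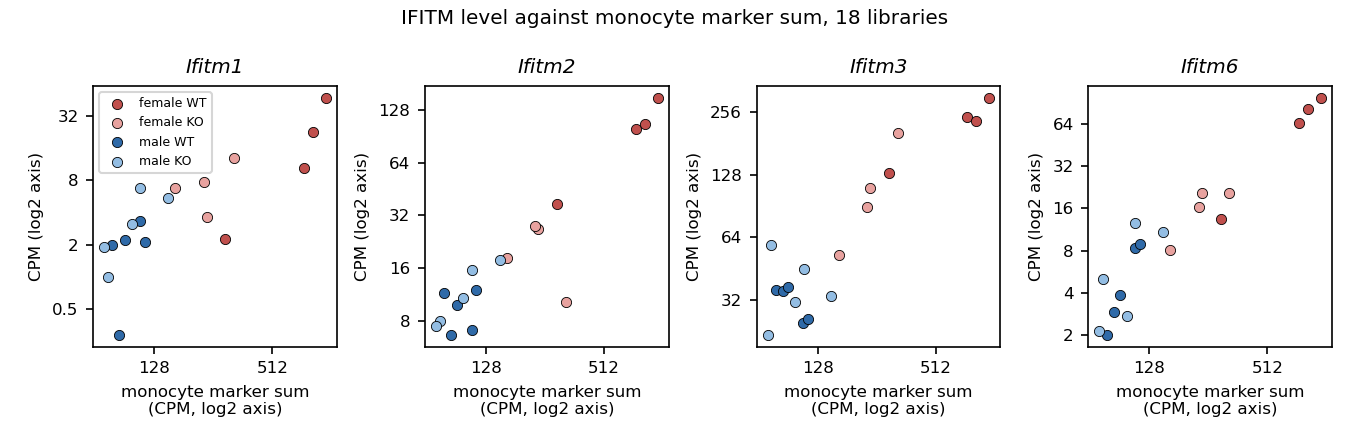
CPM of each IFITM gene (vertical axes, log2) against the monocyte marker sum of the same library (horizontal axes, log2, CPM); each point is 1 of 18 libraries, coloured by group. Female WT libraries reach 963 CPM of marker sum, male libraries stay at or below 151 CPM, and within female WT the library at 295 CPM has the lowest level of all 4 genes.

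The female libraries at the extremes of the monocyte sum are described here. In female WT, replicate 31 had the lowest monocyte sum, 295 CPM, and the lowest Ifitm1, Ifitm2, Ifitm3 and Ifitm6 of its group, while replicate 34 had the highest sum, 963 CPM, and the highest level of each. In female KO, replicate 33 had the highest sum, 328 CPM, with the highest Ifitm1 (from 5 UMIs) and Ifitm3, but the lowest Ifitm2 (10.3 CPM, from 4 UMIs). Female WT replicate 34 and female KO replicate 33 were also the shallowest libraries, with 458075 and 435838 UMIs. Female WT replicate 31 was also lowest of its group in the neutrophil sum (2242 CPM) and the border-associated macrophage sum (167 CPM). These libraries therefore do not set monocyte content apart from depth or from the other sums. Without female WT replicate 31 the slopes were 1.65 for Ifitm1 (adjusted p = 0.370) and 0.85 for Ifitm2 (adjusted p = 0.374), which no longer passed, and 2.09 for Ifitm6, which still passed, while all genes with a slope that passed dropped from 55 (marker genes included) to 9. Ifitm1 also lost its call without female WT replicate 34, female WT replicate 30 or male KO replicate 40 (adjusted p = 0.0973, 0.0547 and 0.0609). Within females alone the slopes of Ifitm1, Ifitm2 and Ifitm3 did not pass, none passed in males alone, where that of Ifitm3 was -0.19, and none passed without the 4 libraries of the highest reads-per-UMI range. In these 3 settings 3, 1 and 0 of all genes passed, in that order.

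Neutrophil marker sums gave smaller slopes. They were 0.81 ± 0.24 for Ifitm1, 0.28 ± 0.14 for Ifitm2, 0.22 ± 0.12 for Ifitm3 and 0.60 ± 0.21 for Ifitm6 per 2-fold higher sum, with edgeR adjusted p-values of 0.161, 0.406, 0.481 and 0.248. None passed, where 0.210% of 10934 genes did. Except in male KO, the neutrophil sum spans a wider fold range within groups than the monocyte sum, so a slope per 2-fold rise of each is on a different footing. With both sums in 1 model, the monocyte slope was 1.95 for Ifitm6 (adjusted p = 0.0324), 1.55 for Ifitm1 (0.386), 1.17 for Ifitm2 (0.0757) and 0.60 for Ifitm3 (0.606), and the neutrophil slopes were 0.25, -0.13, 0.01 and -0.05 for Ifitm1, Ifitm2, Ifitm3 and Ifitm6. The sums are not independent of each other within groups, as 9 of 14 tested neutrophil markers had a positive slope on the monocyte sum that passed, whereas 0 of 11 monocyte markers had one on the neutrophil sum. On the monocyte sum, the median slope was 1.63 for the neutrophil markers. It was 0.98 for the 11 monocyte markers, which are part of that sum and of which 5 passed. A slope on the monocyte sum is therefore not particular to monocyte markers.

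**Figure D3:**
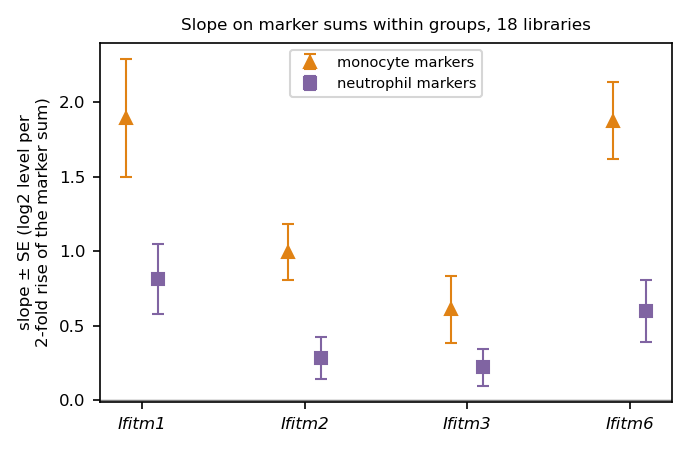
Slope ± SE of each IFITM gene (vertical axis, log2 level per 2-fold rise of the marker sum) on the monocyte (triangles) and neutrophil (squares) marker sums, from 18 libraries with group means in the model. The monocyte slopes of Ifitm1 and Ifitm6 are 1.90 and 1.88, and every neutrophil slope is 0.81 or less.

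With the monocyte sum in the model, the female KO difference moved toward or past 0 for all 4 genes. It was -0.38 ± 0.37 for Ifitm2 and -0.21 ± 0.42 for Ifitm3, against -2.04 and -1.12 without it, and it became positive for Ifitm1 (2.01 ± 0.82) and Ifitm6 (1.13 ± 0.51). The sex difference in WT was -0.49 ± 0.55 for Ifitm2, -1.07 ± 0.66 for Ifitm3, 2.42 ± 1.25 for Ifitm1 and 1.83 ± 0.78 for Ifitm6. None of these 8 values was called, but with this covariate few genes were: 0 of all genes for KO in females (293 without it) and 3 for sex in WT (1892 without it). Because no male and female libraries share a monocyte sum (the highest male sum was 151 CPM and the lowest female sum 164 CPM), the adjusted sex differences extend slopes found within groups beyond the values observed there. The adjusted female KO differences share this limit in part. Of the female WT libraries, only replicate 31, at 295 CPM, lay within the female KO range of 164 to 328 CPM. In males, whose KO and WT sums were alike, the KO difference changed little, to 0.75, 0.26, 0.18 and 0.08 for Ifitm1, Ifitm2, Ifitm3 and Ifitm6. The neutrophil sum as covariate left more of the differences in place, with female KO values of 0.27, -1.49, -0.78 and -0.87 and WT sex differences of -0.50, -2.42, -2.11 and -1.68 in the same order.

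**Figure D4:**
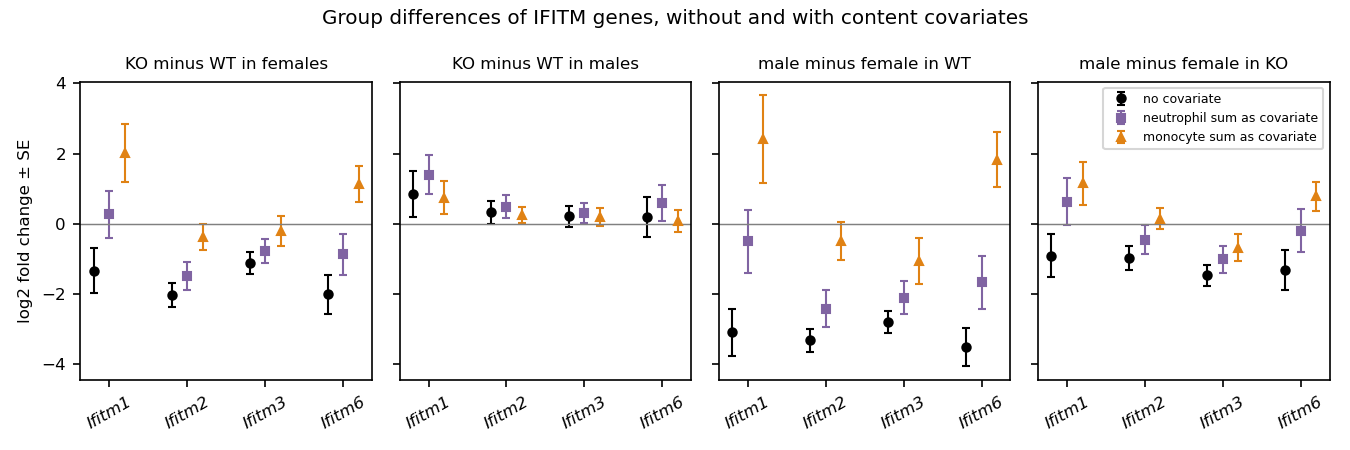
Log2 fold change ± SE (vertical axis) of each IFITM gene in 4 comparisons (panels), with no covariate (black circles), the neutrophil marker sum (purple squares) or the monocyte marker sum (orange triangles) in the model. In female KO against WT the Ifitm2 value moves from -2.04 to -1.49 and -0.38, and in males the values of Ifitm2, Ifitm3 and Ifitm6 differ by less than their SE without a covariate.

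Ifitm2 and Ifitm3 were further compared as a ratio within each library, which no scaling affects. Ifitm2 made up 33.3%, 29%, 22.1% and 31.6% of their joint UMIs in female WT, and 4.82%, 25.8%, 19.5% and 23.8% in female KO. The male KO shares were 25.6%, 34.8%, 11.9%, 25.8% and 25.7%, and the male WT shares were 22.1%, 31.8%, 24.5%, 15.9% and 21.1%. The groups overlapped throughout. The lowest share, 4 of 83 UMIs in female KO replicate 33, had an exact 95% interval of 1.33% to 11.9%, which lies below the point values of all other libraries but male KO replicate 9 (11.9%, interval 6.98% to 18.7%). These intervals cover counting error only.

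**Figure D5:**
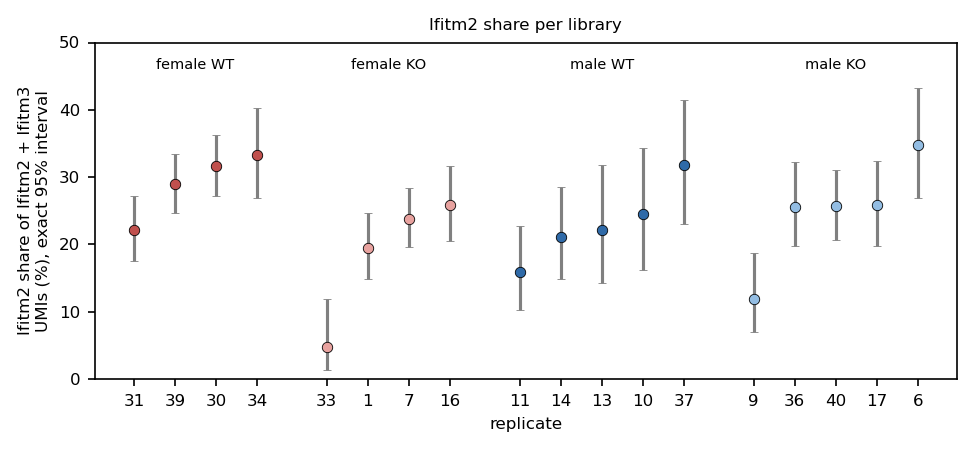
Ifitm2 share of Ifitm2 plus Ifitm3 UMIs (vertical axis, percent) per library (horizontal axis, replicate numbers, grouped and sorted within group), with exact 95% intervals. Most libraries lie between 15.9% and 34.8%, and female KO replicate 33 (4.82%) and male KO replicate 9 (11.9%) lie lowest.

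The interferon response was examined next, since IFITM genes are among the targets of type I interferon. Of 45 listed type I interferon-induced genes, 40 were tested, and none rose or fell in female KO against WT (median log2 fold change -0.03). In male KO against WT 5 rose and none fell (median 0.19): Oas2, a sensor of double-stranded RNA (1.35 ± 0.25, adjusted p = 0.00164), Ifi27l2a (0.88 ± 0.17, adjusted p = 0.00256), Ifit3 (0.70 ± 0.16, adjusted p = 0.0107), the OAS-like gene Oasl1 (1.15 ± 0.30, adjusted p = 0.0201) and Samhd1. Oas2 was at 18.1 ± 6.62 CPM in male KO (n = 5) and 6.76 ± 2 in male WT (n = 5), while the 4 IFITM genes overlapped between these groups. In WT, 15 of 40 were lower in males and none higher (median -0.45), with the lowest p-values for Ifi27l2a (-1.58) and Oas2 (-1.94) and the lowest log2 fold change for Oas3 (-2.84), and in KO 4 were lower, Eif2ak2, Slfn5, Slfn8 and Xaf1. No interferon-induced gene of the list had a slope on the monocyte sum that passed (0 of 40, median slope 0.01, all-gene median -0.01).

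Among interferon ligands, transcripts were at or near 0, with 3 UMIs of Ifnb1, 1 of Ifng and 0 of Ifna4 in all libraries, so that no statement about them can be made at this depth. Of the 15 tested ligands, receptors and signalling genes, Socs3, a feedback inhibitor of cytokine receptors, rose in female KO against WT (0.73 ± 0.17, edgeR adjusted p = 0.0236), and none passed in males. Its call was lost with reads-per-UMI range in the model (adjusted p = 0.111), in females alone (0.145), with the monocyte sum, the neutrophil sum or both as covariates (0.360, 0.152 and 0.332), and in 4 of 18 fits that left out a library (up to 0.0804). Without the 4 libraries of the highest reads-per-UMI range its value was 0.41 (adjusted p = 0.547). The difference of its KO effect between the sexes also passed (1.05 ± 0.22, adjusted p = 0.0448). Socs3 and Irf8 were higher in male than female WT (1.46 and 0.42), and Irf7 was lower (-0.79). The receptor chains Ifnar1 and Ifnar2 did not pass in any comparison, with female KO values of -0.23 ± 0.19 and -0.30 ± 0.20.

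Irf7, a transcription factor of the interferon response, is also a neighbour of the IFITM cluster. Within 250000 bases of the cluster, 40 other genes are annotated and 13 were tested. In female KO against WT 1 was lower, the predicted gene Gm5905 (-1.72 ± 0.43, adjusted p = 0.0366), with none higher, and none passed in males. Between the sexes in WT 3 were lower in males, Irf7, Phrf1 (-0.46) and Gm5905 (-1.50), and none passed in KO. The median of the 13 neighbours was -0.15 in female KO and -0.03 in the WT sex difference. These neighbours were named after their values were seen.

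Other genes of the CD225 domain family, to which IFITM proteins belong, were few in these libraries. Ifitm5, a bone gene, had 11 UMIs and Ifitm7 had 6 in all libraries, and neither was tested. Ifitm10, whose product is little studied and whose gene lies apart from the cluster on chromosome 7, fell in male KO, the group difference in which the 4 members were not called. It was at 30.4, 31.4, 38.3, 31.6 and 32.6 CPM in male KO and 64.6, 48.5, 61.1, 53.9 and 64.7 CPM in male WT, with no overlap (as in 4.58% of all genes; -0.84 ± 0.16, edgeR adjusted p = 0.0018). In females it was -0.15 ± 0.20 and did not pass, and the difference of the KO effect between the sexes did not pass either (0.69, adjusted p = 0.407). On reads without UMI correction the male difference was -0.80 and did not pass (adjusted p = 0.0994). Tmem91 passed in no comparison, with 0.81 ± 0.58 in females and 0.30 ± 0.41 in males.

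Enzymes and partners that act on IFITM proteins did not pass in any comparison, 0 of 7 tested. In female KO against WT the log2 fold changes were -0.40 ± 0.19 for Zmpste24, a membrane protease that binds IFITM proteins, 0.22 ± 0.40 for the palmitoyltransferase gene Zdhhc20, and 0.20 ± 0.41 for the methyltransferase gene Setd7. They were -0.05 ± 0.36 for Vapa, -0.02 ± 0.13 for Vcp, -0.10 ± 0.16 for Cd9 and 0.01 ± 0.13 for the tetraspanin gene Cd81. In males the values ran from -0.55 ± 0.25 for Vapa and -0.37 ± 0.15 for Zmpste24 to 0.04 ± 0.11 for Vcp.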

How the data were processed

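RNA of 18 libraries of purified mouse microglia was measured by bulk MARS-seq. The authors deposited unscaled gene counts as 2 tables, of reads and of UMI-corrected counts. Per the submitters' processing notes, the tools were cutadapt, STAR and HTSeq, with no versions, and the build was mm10. For the annotation, the strand setting and the UMI correction the answer is the same: not given in the sources used here. Of the 34 columns in either table, 16 had no matching sample and were left out. Of 55414 identifiers, 52081 were given symbols and coordinates from GENCODE M21 (GRCm38).

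UMI counts were tested with edgeR 4.0.16 in R 4.3.3: filterByExpr by group (10948 genes), TMM scaling, and a quasi-likelihood model with 1 mean per group over all 18 libraries, Benjamini-Hochberg adjusted, called under 0.05. The SE is the log2 fold change divided by the square root of F. Content covariates are the log2 of a marker list's summed CPM plus 1 CPM. Marker sums were compared by exact permutation tests over 8 comparisons. DESeq2 1.42.0 was an alternative. The fitting was tested on simulated counts. RefSeq promoters (GRCm38.p6) gave the sequences.

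The members, gene lists, tests and alternatives were chosen with earlier results of these data known. Named genes are the 4 members, the 5 genes most like each by Pearson r of log2 CPM (prior count 2), up to 4 genes of each list passing in a KO contrast by lowest p, and all tested CD225 genes and IFITM-acting enzymes. Predicted genes and pseudogenes were left out of the ranking by Pearson r. Chil3, Samhd1 and list genes named for sex comparisons were chosen after their values were seen. A result for a listed signalling gene is not reported here. Replicate numbers differ for every library, so nothing was paired. Pairs of replicates differed by more than sampling noise (chi-square over degrees of freedom 2.92 to 14.0), so each library counts once. Total counts of 435838 to 9149144 UMIs set the precision, and 1 UMI is a larger share of the shallower libraries.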

Additional observations from a re-analysis of the deposited data

Results flagged for a closer look

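Ifitm2 was singled out because its KO difference was not alike in the sexes, with log2 values of -2.04 in females and 0.32 in males and a difference, female minus male, of -2.36 ± 0.48. It was 1 of 26 genes called for this difference of 10948 tested with edgeR. All 4 of 4 female KO libraries were below all female WT libraries, whereas male libraries overlapped. The call was lost in 13 of 18 fits that left out a library. These contrasts led to the choice of the gene, so the values are a description and the call shows nothing beyond that choice. With the monocyte marker sum in the model the difference was -0.64 ± 0.44, and 0 of all genes were called for it. Monocyte marker sums differed 2.96-fold between the female groups, which did not pass (exact permutation p = 0.0571, adjusted p = 0.0914), and 1.06-fold between the male groups. Of the female WT libraries, only replicate 31 lay within the female KO range of this sum. A part of monocyte content in the Ifitm2 difference was not tested. A rule on the gap between an extreme library and the next, relative to its group's range, flagged no library. It was applied to 28 sets of values, the 4 genes, both marker sums and the Ifitm2 share in each group. With so few libraries per group it flags only very extreme values, so it does not show that none stands apart. The Ifitm2 share of female KO replicate 33 (4.82%, next lowest 19.5%) was not flagged.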

How the results depend on the processing

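No paired analysis was possible because replicate numbers differ for every library and the groups share none. Normalization (RLE, upper quartile), DESeq2 and robust dispersions changed no direction of an IFITM group difference. Over all alternatives, left-out libraries included, 592 member differences stayed within the spread between replicates and 49 moved further. Another 6, all of differences called in the fit reported, changed sign. A change of sign in a difference not called there is counted among the 592 or the 49. The changes below came with the settings named, and the cause was not tested. With 18 libraries, 229 UMIs of Ifitm1 and 1 to 29 per library, Ifitm1 is the least precise.

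In the fit reported, all 4 genes had negative values in the comparisons of this paragraph, so positive values here are changes of sign. With the monocyte sum as covariate, values for Ifitm1, Ifitm2, Ifitm3 and Ifitm6 in that order were 2.01, -0.38, -0.21 and 1.13 for KO in females. They were 2.42, -0.49, -1.07 and 1.83 for sex in WT, 1.15, 0.14, -0.68 and 0.78 for sex in KO, and 1.26, -0.64, -0.39 and 1.05 for the difference of KO effects. With both sums they were 1.90, -0.34, -0.21 and 1.15, then 2.21, -0.42, -1.07 and 1.87, then 1.26, 0.10, -0.67 and 0.76, then 0.96, -0.51, -0.40 and 1.11. With a monocyte list lacking S100a4 and S100a6, an alternative chosen after seeing the data, Ifitm1, Ifitm2 and Ifitm6 were at 1.47, -0.51 and 0.60, then 1.26, -0.88 and 0.54, then 0.65, -0.054 and 0.15, then 0.61, -0.83 and 0.39, and Ifitm3 was at -1.98 for sex in WT. With the neutrophil sum, Ifitm1 and Ifitm6 were at 0.27 and -0.87 for KO in females and 0.63 and -0.20 for sex in KO, and the sex differences in WT were -0.50, -2.42, -2.11 and -1.68. Under these 4 covariate settings 0 members were called for KO in females, for sex in KO and for the difference of KO effects, and 0 for sex in WT, except 2 with the neutrophil sum. All genes called under the 4 settings, in the order given here, numbered 0, 7, 6 and 33 for KO in females. They numbered 3, 6, 18 and 60 for sex in WT, 42, 50, 135 and 65 for sex in KO, and 0, 0, 0 and 2 for the difference. Ifitm3 for sex in WT was at -2.15 with the reads-per-UMI range and -2.09 with log2 total UMIs as covariate.

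Members called for KO in females numbered 3 with no filter on low counts, 2 without the 2 shallowest libraries, 0 with females fitted alone, and 1 to 3 without single libraries. For sex in KO they numbered 3 with no filter, 0 with the reads-per-UMI range and 1 to 2 without single libraries. All genes called for sex in KO numbered 1354, 326 and 207 to 1782 in that order, against 777 in the fit reported. The fit without the 4 libraries of the highest range, also chosen after seeing the data, keeps a single female WT library. Its calls for sex in KO are therefore not counted. For the difference of KO effects, members called numbered 3 with no filter, 2 with log2 total UMIs and 0 to 1 without single libraries. They numbered 0 on reads, with robust dispersions, with the reads-per-UMI range or without the 2 shallowest libraries. All genes called for this difference numbered 238 with no filter, 41 with log2 total UMIs and 2 to 84 without single libraries, against 26 in the fit reported. Their number was 10 on reads, 20 with robust dispersions, 25 with the range and 25 without the 2 shallowest libraries. Beside these member counts, all genes called for KO in females numbered 532 with no filter, 462 without the 2 shallowest libraries, 0 with females alone and 0 with the monocyte sum, against 293 in the fit reported.

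The monocyte slope of Ifitm1 no longer passed with log2 total UMIs (1.85), without the 2 shallowest libraries (1.70), in females alone (1.95), with both sums (1.55), without the 4 libraries of the highest range (1.37) or without S100a4 and S100a6 (1.60), and ran from 1.65 to 2.18 without single libraries. That of Ifitm2 no longer passed on reads (1.06), with log2 total UMIs (1.06), in females (0.97) or males alone (1.04), with both sums (1.17) or without the 4 libraries (1.05), and ran from 0.85 to 1.10. That of Ifitm6 no longer passed in males alone (2.41) or without the 4 libraries (2.38). That of Ifitm3 passed with no filter (0.58) and was -0.19 in males alone. Monocyte slopes that passed numbered 1 with log2 total UMIs, in females alone or with both sums, 0 in males alone, and 1 to 3 without single libraries. All genes with a monocyte slope that passed, marker genes included, numbered 32, 3, 11, 1 and 9 to 65 in the same order, against 55 in the fit reported. With no filter 190 of all genes passed. Neutrophil slopes passed for 2 members with no filter, Ifitm1 (0.79) and Ifitm6 (0.58), where 206 of all genes passed, against 35 in the fit reported. These slopes reversed for Ifitm2 (-0.13) and Ifitm6 (-0.052) with both sums and for Ifitm3 in males alone (-0.17) and without the 4 libraries (-0.084).

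On the log2 scale the monocyte sum in female KO against WT was -1.70 on reads, which passed, and -1.82 to -1.38 without single libraries, and in males it was -0.11 to 0.18, negative without male KO replicate 6. Sex differences without single libraries were -3.15 to -2.71 (monocyte) and -3.64 to -2.61 (neutrophil) in WT and -1.44 to -1.06 and -2.66 to -1.68 in KO. In 5 of 18 fits of each the exact test missed the threshold, with adjusted p-values up to 0.0571. Without a male library of the groups compared, 4 libraries stand against 4, and the smallest possible p is 0.0286. Such a miss can therefore come from the number of libraries alone. Female KO differences of other genes reversed with the monocyte sum for S100a6 (0.062), Wfdc21 (0.024), Ltf (0.35), Cd177 (0.82) and Lcn2 (0.31), with both sums for S100a6 (0.02003) and Cd177 (0.50), and without S100a4 and S100a6 for Cd177 (0.15). That of Ifitm10, which did not pass, was 0.32 with the reads-per-UMI range, 0.0059 with log2 total UMIs, 0.079 without the 4 libraries and -0.31 to 0.013 without single libraries. Over the alternatives other than left-out replicates, all genes called ranged from 0 to 532 for KO in females (293 in the fit reported), 222 to 1209 for KO in males (683), 3 to 2545 for sex in WT (1892), 42 to 1354 for sex in KO (777) 0 to 238 for the difference of KO effects (26), 0 to 190 for the monocyte slope (55, marker genes included) and 5 to 206 for the neutrophil slope (35).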

Other observations

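Predicted genes and pseudogenes aside, the genes whose levels most resembled each IFITM gene over the 18 libraries differed between members. For Ifitm3 they were the antigen-presentation gene Cd74 (Pearson r = 0.970, and 0.846 after subtracting group means), Ap2a2 (0.958), Cd52 (0.957), S100a4 (0.951) and Ass1 (0.949). For Ifitm2 they were the lysozyme gene Lyz2 (0.963, and 0.758 after subtracting group means), Fxyd5 (0.956), Plbd1 (0.952), Krt80 (0.937) and Crip1 (0.935). Ifitm6 was most like Mcemp1 (0.967, group-centred 0.887), Adgre5 (0.965, group-centred 0.925), Cyp4f18 (0.959), Lrg1 (0.947) and Anxa2 (0.943). Ifitm1 was most like Anxa2 (0.903, group-centred 0.918), C3 (0.901), Cfp (0.900), Flot2 (0.898) and Lrg1 (0.895). Anxa2 and Lrg1 thus stood in the lists of Ifitm1 and Ifitm6, S100a4 is itself in the monocyte list, and no member was among another member's 5. The points share libraries, depth and group differences, so these values describe likeness only.

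Among the members, Ifitm2 and Ifitm6 were most alike over the 18 libraries (r = 0.892) and Ifitm1 and Ifitm3 least (0.732). After group means were subtracted, Ifitm1 and Ifitm6 were most alike (0.708) and Ifitm2 and Ifitm3, the pair nearest in coding sequence, least (0.143). These too are descriptions over the same libraries.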
